A study of Mus musculus with 78 samples.

Results

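The comparison described here is between flank tissue of mice given the antibody DC101 and untreated flank tissue, both at day 20 after an adenovirus carrying VEGF-A164. It rests on 16 of the 78 arrays of the series, chosen by their source labels: 8 arrays from DC101-treated tissue and 8 from untreated tissue. The mice were female athymic nude mice (Crl:NU(NCr)-Foxn1nu), which lack a thymus and mature T cells, and per the labels they were 4-6 weeks old. All 16 tissues had received Ad-VEGF-A164, a replication-defective virus that makes host cells secrete that isoform of VEGF-A and so raises abnormal, tumour-like vessels at the injection site. The ears of the same mice were injected with the virus as well and are not measured here. DC101 was injected intraperitoneally at 20 mpk, and the untreated mice were labelled as receiving no treatment. Neither a flank injected with an empty virus nor a control antibody is among the groups used here. The labels do not say whether day 20 counts to the start of treatment or to the collection of tissue. Groups are described as having 5 animals or more, and nothing links an array to its animal, so 2 arrays of a group may share one. P-values then measure only the spread between these samples and may be too small. Other groups of the series enter where named: 8 arrays labelled control flank tissue at day 0, 8 arrays of tissue treated with the antibody G6 at day 20 (10 mpk), 8 DC101-treated and 8 untreated arrays at day 5, and 6 DC101-treated and 8 untreated arrays at day 60.

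DC101 is a rat antibody that binds the mouse VEGF receptor VEGFR2, the product of Kdr, and blocks the binding of VEGF-A. VEGFR2 is the main receptor through which VEGF-A drives endothelial cells to divide, migrate and form sprouts led by tip cells, and its activity is known to raise transcripts of angiopoietin 2, apelin, the Notch ligand Dll4 and basement membrane proteins. New vessels then recruit pericytes and smooth muscle cells, in part through PDGF-B. The tissue is whole flank skin with the muscle below it, so every level is an average over many cell types, and fewer cells of a type cannot be told apart from less RNA per cell.

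Promoters are shown for 4 genes that the results turn on: 3 whose transcript was lower after DC101, Kcne3, Kcna5 and Apln, and 1 whose transcript was higher, Cyp1a1. Each is the 250 bases before a transcription start in RefSeq's annotation (GRCm38.p6), 5′ to 3′ on the gene's strand. In the first 3, capitals mark AGGAAG on either strand, the core that ETS factors of endothelium such as Erg bind. In Cyp1a1, capitals mark GCGTG on either strand, the core that the aryl hydrocarbon receptor binds. The window printed is the first listed for the gene that holds the marked motif, so its presence in these 4 is not a result. For Kcne3 the window was taken from 2 listed starts in this way.
Kcne3 (chr7:100176420-100176669, + strand, 1 of 2 starts listed): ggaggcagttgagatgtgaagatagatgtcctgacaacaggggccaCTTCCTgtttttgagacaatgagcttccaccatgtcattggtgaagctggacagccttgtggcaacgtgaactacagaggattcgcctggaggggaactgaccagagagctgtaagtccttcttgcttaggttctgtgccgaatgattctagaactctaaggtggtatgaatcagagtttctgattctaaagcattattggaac
Kcna5 (chr6:126535556-126535805, - strand): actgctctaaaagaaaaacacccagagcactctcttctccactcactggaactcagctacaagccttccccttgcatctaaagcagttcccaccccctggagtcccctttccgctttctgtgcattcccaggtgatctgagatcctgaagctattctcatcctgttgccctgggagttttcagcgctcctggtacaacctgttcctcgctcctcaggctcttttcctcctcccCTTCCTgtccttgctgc
Apln (chrX:48034854-48035103, - strand): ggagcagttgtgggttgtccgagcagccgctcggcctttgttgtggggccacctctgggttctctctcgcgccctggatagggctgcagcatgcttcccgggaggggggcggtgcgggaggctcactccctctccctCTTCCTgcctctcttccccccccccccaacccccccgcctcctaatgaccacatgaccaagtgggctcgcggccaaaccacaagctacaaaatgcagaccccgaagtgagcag
Cyp1a1 (chr9:57697363-57697612, + strand): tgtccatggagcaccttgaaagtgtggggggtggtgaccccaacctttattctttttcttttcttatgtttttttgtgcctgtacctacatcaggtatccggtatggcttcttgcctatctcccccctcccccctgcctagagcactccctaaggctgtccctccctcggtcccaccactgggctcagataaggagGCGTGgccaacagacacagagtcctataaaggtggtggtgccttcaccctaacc
These short motifs are common. AGGAAG was found in 29.5% and GCGTG in 28.2% of all 32851 windows of that length. For the 37 genes that fell under all 4 fits described below, 29 had a promoter entry with 44 windows, of which 20 (45.5%) held AGGAAG and 15 (34.1%) GCGTG. For the genes that rose under all 4 fits, 5 of 13 windows (38.5%) held AGGAAG and 6 (46.2%) GCGTG. A match is a description of these letters and not a binding site.

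Levels are given as log2(signal + 16), where the signal is the array's MAS5 intensity, and differences are DC101 minus untreated on that scale. A gene is said to have risen or fallen where its limma test, adjusted by Benjamini-Hochberg over the 14717 genes tested, gave p below 0.05. Array medians of the 16 arrays ran from 491.47 to 582.58 signal units. The defining markers of endothelium (Pecam1, Cdh5, Emcn, Tie1), pericytes, macrophages, fibroblasts and keratinocytes lay above the filter level on all 16 arrays, whereas the neutrophil receptor Cxcr2 did so on 0. Untreated arrays 51 and 52 (running numbers in the sample titles) stood apart from the other 6 untreated arrays. Their mean level of 24 hair follicle genes was 7.47 and 7.54, against 11.60 to 13.69 on the others, and their mean level of 28 pan-endothelial genes was the highest of all 16 arrays, 13.27 and 13.37. DC101 arrays 68 and 72 had the highest mean levels of 24 skeletal muscle genes, 16.09 and 16.18. In all 8 pairs of adjacent numbers the odd array had the higher level of epidermal genes, which the plot of list levels by array shows. The ratio of 3′ to 5′ probe sets of Actb, a measure of RNA integrity, had a median of 1.74 (1.35 to 2.26) in DC101-treated tissue and 1.42 (1.32 to 1.68) in untreated tissue (exact permutation test, two-sided, p = 0.0062, adjusted over 2 ratios 0.012, n = 8 per group). The Gapdh ratio was 0.848 and 0.849 (exact permutation p = 0.51). The part of these features in the results was not tested beyond the fits named below.

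**Figure D1:**
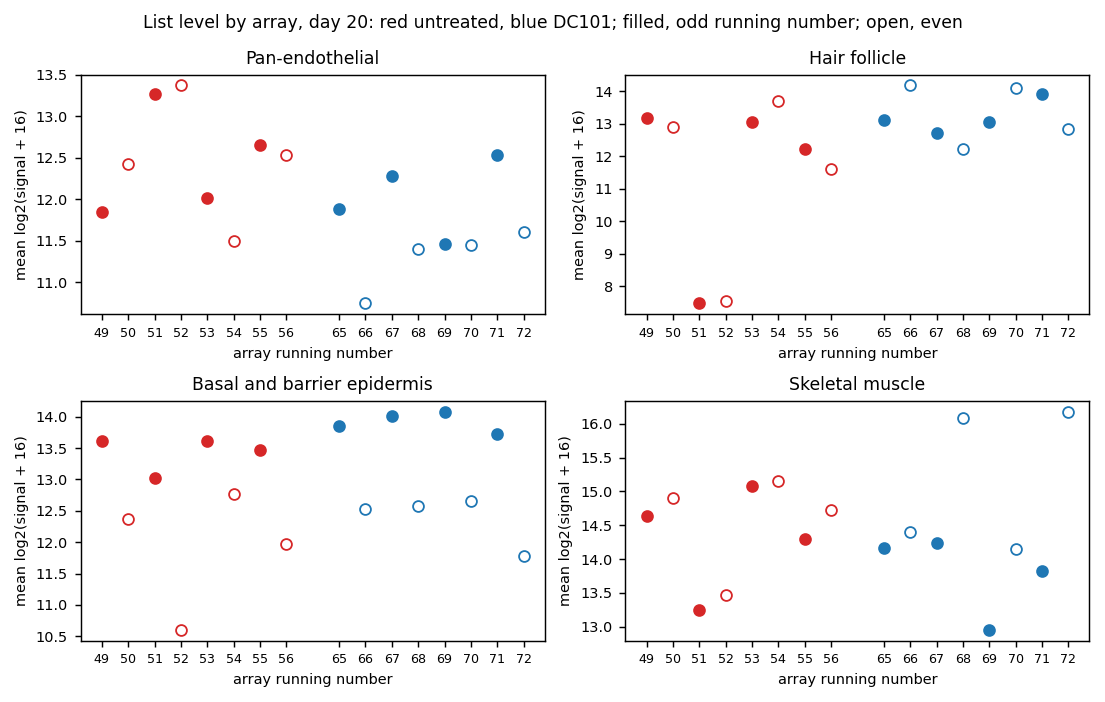
Mean log2(signal + 16) of 4 gene lists on each of the 16 arrays, ordered by running number (x axis); red is untreated, blue is DC101, filled circles are odd and open circles even numbers. Arrays 51 and 52 lie lowest for hair follicle genes and highest for endothelial genes, odd arrays lie above the next even array for epidermal genes, and arrays 68 and 72 lie highest for skeletal muscle genes.

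After DC101, 773 genes were lower and 359 were higher than in untreated tissue at day 20, which is 1132 genes or 7.69% of those tested (5.25% lower, 2.44% higher). Of the 1132, 158 changed at least 2-fold, 121 of them downward. An unadjusted p below 0.05 was reached by 3395 genes. For 35 genes (0.238%) all 8 DC101 arrays lay below all 8 untreated arrays, and for 15 genes (0.102%) all lay above.

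The count depended on arrays 51 and 52. With the 6 other untreated arrays (49, 50 and 53 to 56; below, the 6-array comparison) 94 genes were lower (0.639%) and 57 higher (0.387%), together 1.03% of those tested. All 1132 genes kept their direction there, 149 of them kept the call, and the median gene that fell kept 0.755 of its log2 difference. Every array of that comparison is also in the full one, so the kept direction is not independent support. A fit of the 2 groups alone called 62 lower (0.421%) and 14 higher (0.0951%) genes, 0.516% in all. A fit with adjacent arrays as a random block called 439 lower (2.98%) and 175 higher (1.19%), 4.17% in all. Under all 4 fits, 37 genes fell and 13 rose. The 4 fits share most of their arrays and are not independent of each other. The median difference over all genes was -0.00 in the full comparison and -0.02 in the 6-array comparison, so the lists below are read against 0. Counts of called list members in the full comparison are to be read beside 5.25% of all genes lower and 2.44% higher.

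Of 10 VEGF ligands and receptors 2 fell and 0 rose, beside 5.25% of all genes lower, with a median difference of -0.48 (-0.20 in the 6-array comparison). Kdr, the target of DC101, ran from 11.05 to 13.83 in untreated tissue (median 12.26) and from 10.60 to 13.06 after DC101 (median 11.82). The groups overlapped over most of their range, and the difference of -0.51 (SE 0.26, adjusted p = 0.24) was -0.05 in the 6-array comparison. The second VEGF receptor, Flt1, ran from 10.99 to 13.62 untreated and from 9.98 to 13.01 after DC101, with a difference of -0.70 (adjusted p = 0.14). Of its 3 other probe sets, 2 gave -1.01 and -0.98 and passed the test over probe sets (limma, adjusted p = 0.0086 and 0.045), and the third gave -0.50 (adjusted p = 0.32). The co-receptor Nrp1 differed by -0.30 (adjusted p = 0.43).

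Vegfa, whose probe sets were not checked here for reading the virus's own transcript, ran from 10.89 to 14.72 in untreated tissue and from 10.18 to 13.36 after DC101 (difference -0.61, adjusted p = 0.36). Its highest levels were those of arrays 51 and 52, 14.64 and 14.72, with at most 12.94 on the other untreated arrays, and the difference was 0.02 without them. In control tissue the median Vegfa level was 10.18. These values are from the brightest probe set of Vegfa. Its other probe set differed in the opposite direction, by 0.32, without passing the test over probe sets (limma, adjusted p = 0.29). The 2 members of the list that fell were Pgf, which encodes placental growth factor, a ligand of Flt1, and Flt4, the receptor of VEGF-C. Pgf ran from 8.10 to 10.67 (median 10.12) untreated and from 6.57 to 9.51 (median 8.45) after DC101, and all 8 DC101 arrays lay below the untreated mean. Its difference was -1.70 (SE 0.44, adjusted p = 0.0091), and -1.45 (adjusted p = 0.12) in the 6-array comparison. Flt4 differed by -1.03 (adjusted p = 0.046), and by -0.69 (adjusted p = 0.4) in the 6-array comparison.

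**Figure D2:**
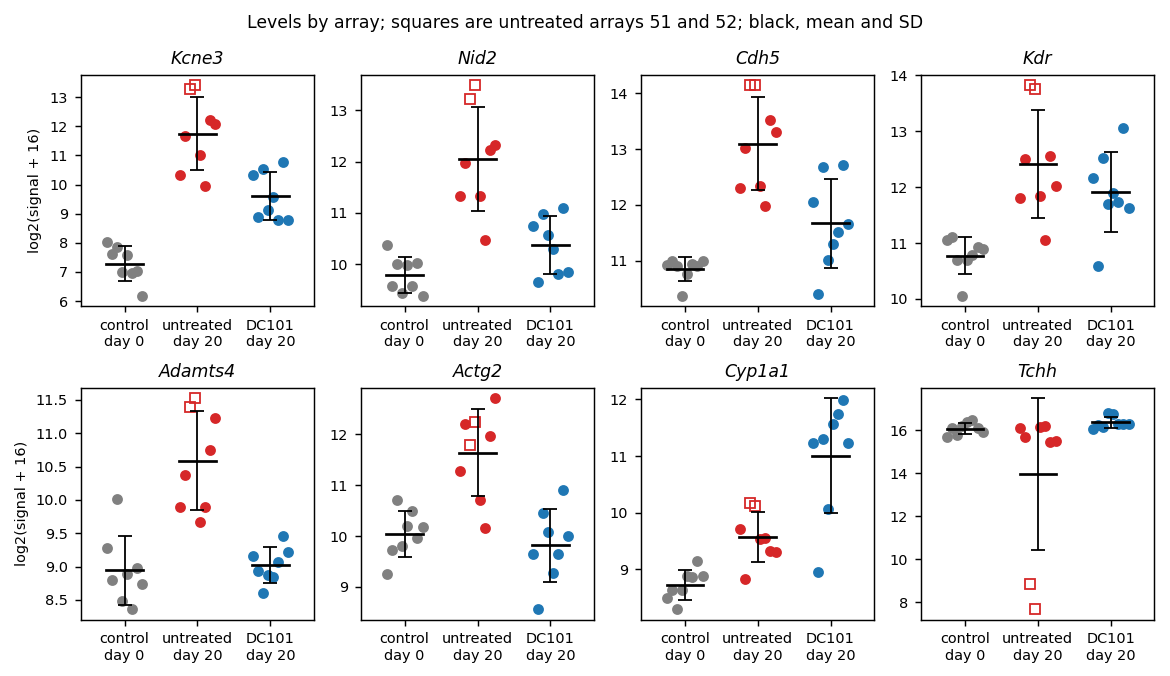
Levels, log2(signal + 16), of 8 genes on each array of control tissue at day 0 (grey), untreated tissue at day 20 (red) and DC101-treated tissue at day 20 (blue), with 8 arrays a group; black lines are means and bars SD, and open squares are untreated arrays 51 and 52. Adamts4 did not overlap between untreated and DC101 arrays, Kdr overlapped over most of its range, and the mean of untreated Tchh was set by the 2 squares.

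Endothelial identity genes were lower on balance. In the pan-endothelial list of 28 genes 13 fell, 0 rose, and 27 of the 28 differences were below 0, with a median of -0.73 (-0.46 in the 6-array comparison). Cdh5, the endothelial adhesion molecule VE-cadherin, ran from 11.97 to 14.15 (median 13.17) untreated and from 10.41 to 12.72 (median 11.59) after DC101. All 8 DC101 arrays lay below the untreated mean, although the groups overlapped, and the difference was -1.43 (SE 0.29, adjusted p = 0.00084). A dimmer probe set of Cdh5 gave -0.71 (limma over probe sets, adjusted p = 0.056). Cd93, a sugar-binding receptor of sprouting endothelium, had medians of 14.42 and 12.74 and fell by 1.37. The orphan Tie receptor Tie1 had medians of 11.58 and 10.01 and fell by 1.36. Rasip1, which is needed for vessel lumens to form, fell by 1.18.

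The decline was uneven within the list. Tek, the receptor of the angiopoietins, had medians of 12.72 and 12.74, a difference of -0.05 (adjusted p = 0.94). Cd34, a sialomucin of endothelium and progenitors, differed by 0.01 (adjusted p = 0.98). Pecam1 (CD31) and Emcn (endomucin), markers by which vessels are often stained, differed by -0.60 and -0.53 (adjusted p = 0.24 and 0.34), and by -0.21 and -0.09 in the 6-array comparison. In that comparison 1 of the 13 kept the call, Rasip1 (-0.91, adjusted p = 0.049). For Cdh5 the value was -1.08 (adjusted p = 0.052). The 2 groups fitted alone called 0 of the 28, and leaving out DC101 arrays 68 and 72, those with the most muscle transcript, left 6 calls with a list median of -0.695.

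Genes induced by VEGF or marking tip cells gave 15 falls of 28 and 0 rises, with a median of -0.88 (-0.59 in the 6-array comparison, where 7 were lower). Kcne3, a potassium channel subunit enriched in tip cells, had the largest fall of the genes named here. Its 8 untreated levels ran from 9.96 to 13.41 (median 11.88) and its DC101 levels from 8.79 to 10.77 (median 9.36), which is a fall of 2.14 (SE 0.41, adjusted p = 0.0005) and 4.42-fold. Untreated arrays 51 and 52 were the highest, at 13.28 and 13.41 against at most 12.21 on the others, and the fall was 1.61 (adjusted p = 0.037) without them. Control tissue had a median of 7.31, below the lowest DC101 array. Nid2, the basement membrane linker nidogen 2, ran from 10.47 to 13.49 untreated and from 9.65 to 11.10 after DC101, and fell by 1.67 (adjusted p = 6.6e-05; 1.23, adjusted p = 0.008, in the 6-array comparison).

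Apln, which encodes the peptide apelin secreted by tip cells, did not overlap between the groups. Its untreated levels ran from 10.80 to 12.65 (median 11.33) and its DC101 levels from 9.93 to 10.58 (median 10.41), and it fell by 1.21 (SE 0.20, adjusted p = 6.6e-05). It kept the call under all 4 fits. Its receptor Aplnr overlapped, with medians of 15.04 and 14.33 and a difference of -0.54 (adjusted p = 0.27). Angpt2, the angiopoietin that loosens vessels, ran from 10.41 to 13.29 untreated and from 9.19 to 11.10 after DC101, and fell by 1.32 (adjusted p = 0.0016; -0.79, adjusted p = 0.13, in the 6-array comparison). Of the 8 angiopoietin, Tie and apelin genes 4 fell and 0 rose. Angpt1, the ligand that steadies vessels, differed by -0.10 (adjusted p = 0.74).

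Further tip-cell genes that fell were Cxcr4 (1.39), the receptor of the chemokine Cxcl12, Mcam (1.46), an adhesion molecule shared with pericytes, Plxnd1 (1.26), a semaphorin receptor, and Tmem255a (1.3). The last kept the call under all 4 fits, with medians of 10.55 untreated and 9.01 after DC101. Cxcr4 and Mcam lost the call in the 6-array comparison (adjusted p = 0.069 and 0.071). Esm1, endocan, the classical VEGF-induced transcript of tip cells, did not pass the test. It ran from 10.27 to 14.45 untreated and from 10.07 to 13.73 after DC101, with a difference of -0.64 (SE 0.56, adjusted p = 0.53), while control tissue had a median of 8.26. Adm, Rcan1 and Rgcc, which VEGF is also known to induce, differed by -0.12, 0.03 and 0.00.

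In the Notch pathway and its arterial targets 10 of 19 genes fell and 0 rose, with a median of -0.60. Dll4, the Notch ligand of tip cells, ran from 8.92 to 10.94 untreated and from 8.46 to 9.44 after DC101, and fell by 1.02 (SE 0.21, adjusted p = 0.00083). The endothelial receptor Notch4 fell by 1.27 (adjusted p = 0.023) and the mural receptor Notch3 by 0.74, whereas Notch1 differed by -0.12 (adjusted p = 0.85). Target genes Hes1, Hey1 and Heyl fell by 0.60, 0.96 and 0.86. Gja4, the arterial gap junction protein connexin 37, fell by 1.12 and the kinase Bmx by 0.83. The ligands Jag1 and Jag2 differed by -0.19 and -0.12 and the arterial ephrin Efnb2 by -0.11, and none of the 3 passed the test. None of the 10 kept the call in the 6-array comparison, where the list's median was -0.52. There Dll4 differed by -0.73 (adjusted p = 0.061).

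Of 20 endothelial transcription factors 7 fell and 0 rose (median -0.60). They were the SOX factors Sox18 (1.33), Sox17 (1.02) and Sox7 (0.78), the repressor Bcl6b (1.38), the ETS factor Erg (1.20), and Heyl and Hhex. Sox18 ran from 11.70 to 13.76 untreated and from 10.46 to 12.76 after DC101. The flow-induced factors Klf2 and Klf4 differed by -0.52 and 0.17 and did not pass the test. In the 6-array comparison 0 of the 20 were called (Sox18 -1.0, adjusted p = 0.07). Guidance genes gave 5 falls of 18, with the ephrin receptor of veins Ephb4 (0.46) and the endothelial Robo4 (1.11) among them, venous and lymphatic genes 5 of 15, and leukocyte adhesion genes 2 of 10, Icam2 (1.15) and Vcam1 (0.94). None of these 3 lists had a rise, and in the 6-array comparison Plxnd1 was their 1 call. Dimmer probe sets of Vcam1 gave -0.58 and -0.40 (limma over probe sets, adjusted p = 0.069 and 0.49).

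Smooth muscle and pericyte genes were lower too. In whole flank tissue the levels do not tell smooth muscle of vessels from other smooth muscle. Of 12 smooth muscle genes 5 fell and 0 rose, with the lowest median of the 41 lists, -1.01 (-0.79 in the 6-array comparison). The list's mean level was 12.11 in untreated, 11.17 in DC101-treated and 11.65 in control tissue. Against control tissue, 4 of the 12 were lower and 1 higher after DC101, beside 15.1% and 15.2% of all genes. Actg2, an actin of smooth muscle, ran from 10.16 to 12.70 (median 11.88) untreated and from 8.56 to 10.90 (median 9.82) after DC101. All 8 DC101 arrays lay below the untreated mean, the fall was 1.81 (SE 0.42, adjusted p = 0.0034), and the call held under all 4 fits. The DC101 median was near that of control tissue, 10.08. Lmod1, which nucleates smooth muscle actin filaments, fell by 1.36 (adjusted p = 0.045), Myocd, the coactivator of the smooth muscle programme, by 1.31, the kinase Mylk by 1.10 and the myosin light chain Myl9 by 0.85. These 4 lost the call in the 6-array comparison. The defining markers Myh11, Acta2 and Cnn1 differed by -1.52, -0.74 and -1.19 without passing the test (adjusted p = 0.059, 0.074 and 0.32).

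Among 15 pericyte and PDGF-B genes 6 fell and 0 rose (median -0.72). Pdgfb, the endothelial signal that recruits pericytes, ran from 11.18 to 13.05 untreated and from 10.41 to 11.80 after DC101, and fell by 1.17 (SE 0.22, adjusted p = 0.00041; 0.90, adjusted p = 0.032, in the 6-array comparison). Its receptor on pericytes, Pdgfrb, differed by -0.81 (adjusted p = 0.058) and the abundant pericyte gene Rgs5 by -0.65 (adjusted p = 0.11). Cspg4 (NG2) fell by 0.57 and lost the call in the 6-array comparison. In the endothelial BMP and TGF-beta pathway 4 of 18 fell: the ligand Tgfb1, the co-receptor Eng, the transducer Smad1 and the target Id3. Tgfb1 ran from 10.68 to 12.65 untreated and from 9.90 to 11.13 after DC101, fell by 1.19 (SE 0.19, adjusted p = 5.3e-05) and was called under all 4 fits. Its other, dimmer probe set gave -0.23 (adjusted p = 0.37).

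The vascular basement membrane list had 10 falls of 17 and 0 rises, with a median of -0.62 (-0.41 in the 6-array comparison, where Nid2, Col18a1 and Col15a1 were called). Col15a1, a collagen of the outer basement membrane, did not overlap: it ran from 11.79 to 12.75 (median 12.36) untreated and from 10.74 to 11.73 (median 11.18) after DC101, a fall of 1.08 (SE 0.22, adjusted p = 0.00072). Col18a1, the collagen that yields endostatin, ran from 12.30 to 14.16 untreated and from 11.25 to 12.69 after DC101 and fell by 1.40 (adjusted p = 0.00016). Both were called under all 4 fits. The network collagens Col4a1 and Col4a2 fell by 0.83 and 1.23 and the laminin chains Lama4, Lamb1, Lamc1 and Lama5 by 0.53 to 0.76. Nid1, the other nidogen, differed by -0.05 (adjusted p = 0.91), and the proteoglycan Hspg2 by -0.26 (adjusted p = 0.17).

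Among 21 wound matrix genes 5 fell and 0 rose (median -0.56). Col12a1, which coats collagen fibrils under load, ran from 11.26 to 14.15 untreated and from 10.13 to 11.92 after DC101, and fell by 1.65 (SE 0.31, adjusted p = 0.00047; 1.22, adjusted p = 0.037, in the 6-array comparison). The metalloprotease Adam12 fell by 1.53 (1.18, adjusted p = 0.057, in that comparison) and the angiogenesis inhibitor Thbs1 by 1.42. The other abundant wound proteins Postn, Fn1 and Tnc differed by -0.15, -0.13 and -0.17 and none passed the test. In the fibrillar list 3 of 19 fell, the collagen VI chains Col6a1, Col6a2 and Col6a3 (0.69 to 0.77), and 1 rose, the proteoglycan Dcn (0.52, adjusted p = 0.021). All 4 lost the call in the 6-array comparison.

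Of 17 matrix metalloprotease genes and inhibitors 3 fell and 0 rose, and the 3 were ADAMTS proteases, which cut proteoglycans. Adamts4 did not overlap: it ran from 9.67 to 11.52 (median 10.56) untreated and from 8.60 to 9.47 (median 9.0) after DC101. The fall was 1.56 (SE 0.26, adjusted p = 6.6e-05), and it held under all 4 fits. The DC101 median was near the control median, 8.84. Adamts9 fell by 1.0 and Adamts1 by 0.65, both lost in the 6-array comparison. The collagenase Mmp13 and the gelatinases Mmp2 and Mmp9 differed by -1.40, 0.29 and -0.49 (adjusted p = 0.074, 0.51 and 0.25).

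**Figure D3:**
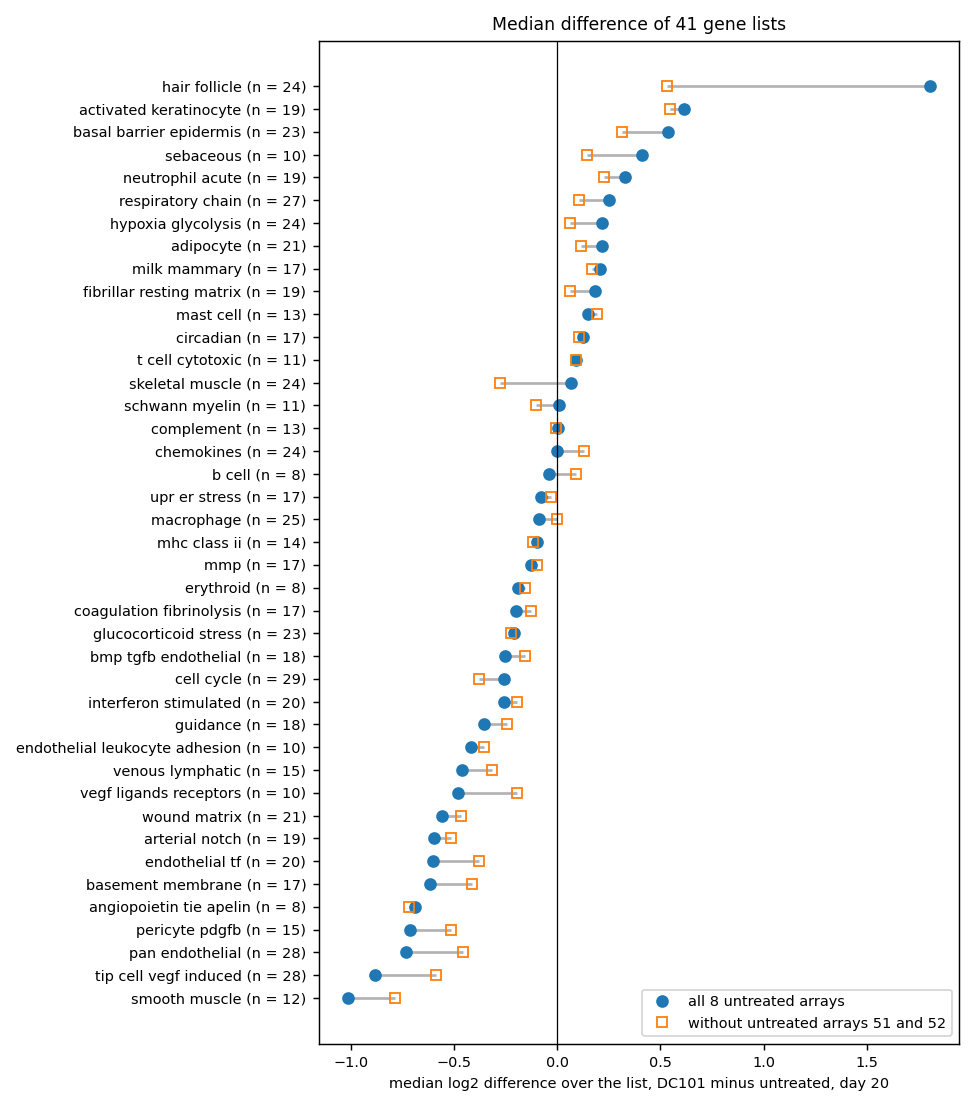
Median log2 difference, DC101 minus untreated at day 20, over the tested members of each of 41 gene lists (n, members tested); filled circles use all 8 untreated arrays and open squares leave out arrays 51 and 52. Smooth muscle, tip-cell and endothelial lists lie lowest, and the hair follicle list moves from 1.81 to 0.53 without the 2 arrays.

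Most of the rise of the hair follicle list rested on arrays 51 and 52, and the calls of epidermal genes were lost without them. The hair follicle list had the highest median of the 41 lists, 1.81 over 24 genes, with 1 call beside 2.44% of all genes higher. Its median was 0.53 with 0 calls in the 6-array comparison. Tchh, trichohyalin of the inner root sheath, was 8.86 on array 51 and 7.69 on array 52 and from 15.45 to 16.18 on the other 6 untreated arrays, against 16.06 to 16.80 after DC101. Its difference was 2.41 (adjusted p = 0.021), and 0.52 (adjusted p = 0.7) without the pair. Of the 12 largest rises, Tchh, Pinlyp, Lyg2, Prr9, Cst6, Krtap21-1, Klk7 and Csta1, several of them genes of hair or cornifying epidermis, had differences of 1.53 to 2.41, and each lost the call in the 6-array comparison. The stress keratins Krt6a and Krt17 rose by 1.39 and 1.41, as 2 of 19 activated keratinocyte genes, and 0 of 23 basal and barrier epidermis genes were called (10 higher at an unadjusted p below 0.05 in limma). In the sebaceous list Scd3 and Mgst1 rose by 0.91 and 0.54, 2 of 10. All these calls ended in the 6-array comparison. The activated keratinocyte median was 0.62 in the full comparison and 0.55 in the 6-array comparison. The basal and barrier median was 0.54 and 0.31. Array 52 had the lowest untreated level of both lists (9.64 and 10.60). Array 51 (12.02 and 13.02) lay above the untreated medians (11.58 and 12.89).

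Of the other large rises, Idi2, an isomerase of isoprenoid synthesis, spanned the range of the scale in untreated tissue, from 4.52 to 12.62 with a median of 4.99, and ran from 10.35 to 13.90 after DC101. Its difference of 4.59 had an SE of 1.41 (adjusted p = 0.032; 0.23 in the 6-array comparison), and control tissue had a median of 10.46. Most untreated levels of Idi2 lay below the filter level, so this size and those given below for Idi2 between days are uncertain. Pon1, the serum paraoxonase, was below the filter level on all untreated arrays (4.82 to 8.15) and had a DC101 median of 8.05, so no fold is given (adjusted p = 0.018; 0.2 in the 6-array comparison). Inmt, a methyltransferase, rose by 1.64 (adjusted p = 0.012) and the steroid dehydrogenase Akr1c21 by 1.54 (adjusted p = 0.023), and both lost the call in the 6-array comparison.

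Cyp1a1, a cytochrome P450 that the aryl hydrocarbon receptor induces, was the largest rise to keep its call in the 6-array comparison among the genes named here. Its untreated levels ran from 8.84 to 10.16 (median 9.55), while 7 of the 8 DC101 arrays lay between 10.06 and 11.99 and array 66 at 8.95. Array 68, at 10.06, overlapped the untreated range as well. The rise was 1.44 (SE 0.29, adjusted p = 0.00087), 2.71-fold, and 1.63 (adjusted p = 0.0042) in the 6-array comparison. The fit of the 2 groups alone gave an adjusted p of 0.063. The control median was 8.75. Cyp1a1 belongs to no list and was singled out after its values were seen.

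Outside the lists, several further genes fell. Kcna5, a voltage-gated potassium channel of vascular smooth muscle, ran from 8.11 to 9.40 (median 9.16) untreated and from 6.51 to 9.02 (median 7.11) after DC101, and fell by 1.68 (SE 0.31, adjusted p = 0.00028). Its DC101 median was below the control median of 8.65, and the call held under all 4 fits. Most of its DC101 levels lay below the filter level, so the size of the fall is uncertain. Rusc2, an adaptor protein, was below the filter level on all DC101 arrays and at least 1.71-fold lower there, and A4galt, the synthase of the glycolipid Gb3, at least 1.17-fold lower. Pcdh12 (an endothelial protocadherin), Slc16a12 (a monocarboxylate transporter) and Fhod1 (a formin) fell by 1.73, 1.64 and 1.89. Most DC101 levels of Fhod1 lay below the filter level, so the size of its fall is uncertain. A dimmer probe set of Pcdh12 gave -0.36 (adjusted p = 0.66). Pcdh12, Slc16a12, Fhod1 and A4galt lost the call in the 6-array comparison, as did Ct55, which was lower after DC101 (adjusted p = 0.033) and for which no fold is given, since all 8 DC101 arrays and the untreated mean lay below the filter level.

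The 37 genes that fell under all 4 fits, chosen after their values were seen, also held Kank3 (1.26), Ch25h (1.31), the cholesterol 25-hydroxylase, Ift122 (1.23), Cnnm2 (1.46), Afap1l1 (1.11) and Col5a3 (1.18). Smaller but non-overlapping falls were those of Tnip1, an inhibitor of NF-kappaB signalling, which ran from 11.87 to 12.29 untreated and from 11.21 to 11.74 after DC101, and of Cblb, a ubiquitin ligase, which ran from 11.64 to 11.84 and from 10.44 to 11.47. Dlk1, an imprinted inhibitor of adipocyte differentiation, did not overlap either: 10.30 to 11.29 (median 10.88) untreated against 8.62 to 10.16 (median 9.46), a fall of 1.40 (SE 0.24, adjusted p = 0.0001). Rian, a non-coding RNA of the same imprinted region, fell by 1.21 and Mest, a paternally expressed gene, by 1.08, both under all 4 fits. Meg3 and Mirg of that region differed by -0.47 and -0.55 (adjusted p = 0.19 and 0.062), and the imprinted genes Igf2 and Peg3 by -0.15 and -0.32 (adjusted p = 0.73 and 0.32).

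The 13 genes that rose under all 4 fits included subunits of the ribosome, the proteasome and the prefoldin chaperone. Rps24 ran from 15.76 to 16.16 untreated and from 16.23 to 16.69 after DC101, without overlap, and rose by 0.46 (SE 0.08, adjusted p = 0.00016). Psmb3, a proteasome subunit, Pfdn1, a subunit of prefoldin, Slirp, which steadies mitochondrial mRNA, and Fhit, a dinucleotide hydrolase, rose without overlap by 0.60, 0.60, 0.51 and 0.88. Lists of 45 ribosomal protein and 37 proteasome genes were drawn up after these values were seen. Of the first 32 rose and 0 fell, with a median of 0.37, and of the second 17 rose and 0 fell, with a median of 0.28, against 2.44% of all genes higher. In the 6-array comparison 18 and 5 rose (medians 0.32 and 0.26), and with the 2 groups alone 2 and 1. Adding both RNA ratios to the fit left 29 and 14 rises. That fit called 553 lower and 341 higher genes in all. It called 8 pan-endothelial genes lower (13 in the full fit), 13 tip-cell genes (15) and 5 Notch genes (10). Falls also numbered 4 for basement membrane (10), 2 for smooth muscle (5) and 1 for glucocorticoid and stress genes (4). Respiratory chain rises numbered 10 (5). The Actb ratio was higher in the DC101 arrays, as given above, and its part in these rises and falls was not tested beyond that fit.

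Of 27 respiratory chain genes 5 rose and 0 fell (median 0.25), beside 2.44% of all genes higher and 5.25% lower, among them Ndufa4 (0.54) and Cox5b (0.43), and 0 were called in the 6-array comparison, where the median was 0.11. The respiratory list, too, was low on arrays 51 and 52 (13.14 and 13.10, against a DC101 range of 13.49 to 14.83). It was highest on DC101 array 72, and without DC101 arrays 68 and 72 the list had 0 genes higher and 1 lower, with a median of -0.01. Of 24 hypoxia and glycolysis genes Higd1a (0.68) and Egln3 (0.75), a prolyl hydroxylase, rose and Ddit4 fell (0.58). Another probe set of Higd1a gave -0.01. The classical hypoxia targets Car9, Pgk1 and Slc2a1 differed by 0.29, 0.34 and 0.24 and did not pass the test. Of 23 glucocorticoid and stress genes 4 fell and 0 rose. Zbtb16, a zinc finger repressor that glucocorticoid induces, ran from 11.22 to 12.13 untreated, and from 9.80 to 12.19 after DC101, and fell by 0.92 (adjusted p = 0.011), and by 1.0 (adjusted p = 0.043) in the 6-array comparison. Dusp1, Angptl4 and Fkbp5 fell by 0.95, 0.84 and 0.81 and lost the call there. The clock factor Npas2 was the 1 fall of 17 circadian genes (0.63) and the chaperone Sdf2l1 that of 17 unfolded protein response genes (0.44).

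None of 25 macrophage genes passed the test, and the receptor Csf1r and the marker Adgre1 differed by -0.09 and -0.04 (adjusted p = 0.8 and 0.95). None of 29 cell cycle genes passed it (median -0.26, and -0.38 in the 6-array comparison), with Mki67 at -0.23 (adjusted p = 0.75). The interferon (20 genes), coagulation (17), complement (13), B cell (8), MHC class II (14), mast cell (13), adipocyte (21), skeletal muscle (24), milk and mammary (17), Schwann cell (11) and erythroid (8) lists also had 0 calls. At an unadjusted p below 0.05, limma gave 2 macrophage and 4 cell cycle genes, all lower, and from 0 to 5 genes in each of those 11 lists. Among 24 chemokine genes Cxcr4 and Cx3cl1 (0.63) fell, among 19 neutrophil and acute-phase genes haptoglobin (Hp) rose by 1.09, and among 11 T and cytotoxic cell genes Thy1, which fibroblasts and vessels also make, fell by 0.86. Calls this few in lists of this size are near the shares of all genes, 5.25% lower and 2.44% higher. Hp and Thy1 lost the call in the 6-array comparison. A p above the threshold does not show that these genes were equal: 82% of simulated 2-fold changes and 36% of simulated differences of 0.5 on the log2 scale were recovered. The simulated arrays were independent of each other, so recovery in the data may be lower.

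DC101 and G6, the other antibody of the study, were compared directly at day 20. The doses differed, 20 mpk for DC101 and 10 mpk for G6, so the values stand side by side without a comparison of potency. Of 14717 genes 36 (0.245%) differed, 16 higher (0.109%) and 20 lower (0.136%) after DC101, and 0 did so in limma fits of the groups alone or with adjacent arrays as a random block. At an unadjusted p below 0.05 these fits had 1551 and 1392 genes, against 1881 in the full fit. The list medians of this contrast were 0.13 for tip-cell genes and 0.36 for pan-endothelial genes, beside 0.01 over all genes. They were -1.34 for activated keratinocyte genes, 0.51 for hair follicle genes and -0.50 for cell cycle genes, with 0 genes of these 3 lists called. Against untreated tissue 12 of 19 activated keratinocyte genes rose with G6, and 2 with DC101. None of the 28 pan-endothelial genes was called, and of the 28 tip-cell genes 1 was, Adm, which encodes adrenomedullin (1.05 higher after DC101, adjusted p = 0.032). Aplnr was 1.39 higher after DC101 (SE 0.29, adjusted p = 0.02), with medians of 14.33 against 13.08, and Btnl9, a butyrophilin-like gene of capillaries, 1.44 higher (adjusted p = 0.049). The erythroid enzyme Alas2 was 2.50 higher (adjusted p = 0.049), and Cyp1a1 1.20 higher (adjusted p = 0.049), with medians of 11.26 against 10.00. Genes lower after DC101 were Cdhr1 (-1.77), Ccnb1ip1 (-1.39), Ajuba (-1.01), a LIM protein of cell junctions, and Bcl3 (-0.90), a regulator of NF-kappaB. All DC101 levels of Cdhr1 lay below the filter level, so its size is uncertain. Most DC101 levels of Ccnb1ip1 and part of the G6 levels of Alas2 lay below it too, so their sizes are also uncertain. Ajuba was also lower than in untreated tissue (-1.03), where G6 differed by -0.01.

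G6 against untreated tissue called 9.98% of genes (3.97% higher, 6.01% lower), beside 7.69% for DC101. From untreated tissue Kdr differed by -0.51 with DC101 and by -1.43 with G6, and Flt1 by -0.70 and -1.55. The direct contrast between antibodies gave 0.92 for Kdr and 0.85 for Flt1 and called neither (adjusted p = 0.092 and 0.18). Cdh5 fell by 1.43 and 1.61, Kcne3 by 2.14 and 2.04 and Nid2 by 1.67 and 1.72. Both comparisons share the 8 untreated arrays, 51 and 52 included.

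**Figure D4:**
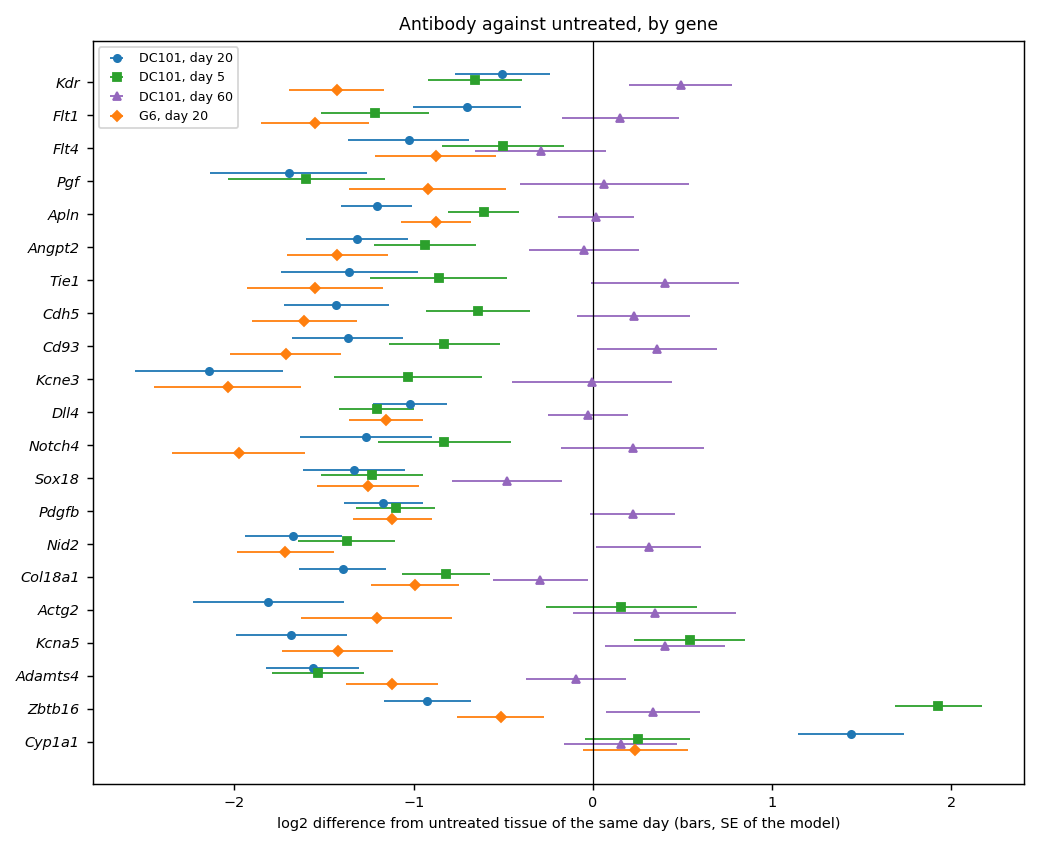
Log2 difference from untreated tissue of the same day for 21 genes (bars, SE of the model): DC101 at days 5, 20 and 60, and G6 at day 20. Day-20 and day-5 values of most vessel genes lie below 0 and day-60 values of Cdh5, Kcne3 and Apln near 0, Zbtb16 lies above 0 at day 5 and below 0 at day 20, and Cyp1a1 stands out at day 20 with DC101.

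The DC101 difference at day 20 was tested against that at day 5, and 267 genes (1.81%) differed, 134 higher (0.911%) and 133 lower (0.904%). Of 28 pan-endothelial genes Vwf, von Willebrand factor, was called (-0.72 at day 20 and 0.86 at day 5), and of 28 tip-cell genes 0 were. Cdh5 was -1.43 at day 20 and -0.64 at day 5, Kcne3 -2.14 and -1.03, and Nid2 -1.67 and -1.37, and the test did not separate the days for any of these. Kcna5 did differ, with -1.68 at day 20 and 0.54 at day 5 (difference -2.22, SE 0.44, adjusted p = 0.0012), and so did Lmod1 (-1.36 and 0.85, adjusted p = 0.045; 0.099 in the 6-array comparison). The largest differences below 0 were those of glucocorticoid targets. Klf15 was 0.26 at day 20 and 3.63 at day 5 (difference -3.38, adjusted p = 2.7e-06), and Zbtb16 was -0.92 and 1.93 (difference -2.85, adjusted p = 4.2e-08). Of the 23 genes of the glucocorticoid and stress list 7 were lower in the contrast, with Per1, Klf9, Tsc22d3, Mt1 and Fkbp5 beside these. All 7 rose at day 5, and at day 20 they ran from -0.92 to 0.42. Rap1gap (-2.75) and the chemokine Cxcl13 (-2.71) were lower as well, and Idi2 (7.52), Pcdh8 (2.56), the neutrophil peptide Camp and Zfp458 (2.12) higher. Camp lay below the filter level on all 8 DC101 arrays and 6 of 8 untreated arrays of day 20, so no size is given for it. Cxcl13, Pcdh8 and Idi2 lost the call in the 6-array comparison.

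Against day 60, 2678 genes (18.2%) differed, 1368 higher (9.3%) and 1310 lower (8.9%), and 1493 were called without arrays 51 and 52. Here vessel lists moved as groups: 17 of 28 pan-endothelial, 16 of 28 tip-cell and 9 of 17 basement membrane genes were lower at day 20. The immediate early factor Egr3 of the tip-cell list was the 1 member of these 3 lists that was higher (1.49). Cdh5 was -1.43 at day 20 and 0.23 at day 60 (difference -1.66, SE 0.43, adjusted p = 0.0044; 0.035 in the 6-array comparison). Nid2 was -1.67 and 0.31 (-1.98, adjusted p = 0.00031), Apln -1.21 and 0.02 (-1.22, adjusted p = 0.0021), and Kcne3 -2.14 and -0.00 (-2.14, adjusted p = 0.0098; 0.067 in the 6-array comparison). Tgfb1 differed by -1.78 and Kcna5 by -2.08. The largest differences outside the lists were those of Fhod1 (-3.29), Depp1 (-3.21), a FOXO target, Hcls1 (-2.78) and Rbmxl2 (-2.75). Part of the day 20 levels of Fhod1, Hcls1 and Rbmxl2 lay below the filter level, so their sizes are uncertain. Depp1 was 2.53 at day 60 and -0.68 at day 20. The largest in the other direction were Idi2 (6.11), the hair genes Krtap15 and Krt33a (4.60 each) and Mt4 (4.53), of which Mt4 alone kept the call in the 6-array comparison.

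Of the lists drawn up after values were seen, 33 of 45 ribosomal protein genes were higher in the day 20 difference than in the day 60 one. Against untreated tissue of their own day, 32 rose at day 20 and 30 fell at day 60, with medians of 0.37 and -0.33, where 6.91% of all genes fell and 4.65% rose at day 60 (11.6% in all). At day 5, 0 rose and 1 fell, with a median of 0.14, where 4.65% of all genes rose and 7.11% fell (11.8% in all). Of the 37 proteasome subunits, 17 rose at day 20 and 8 fell at day 60.

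Tissue treated with DC101 was also set beside control tissue of day 0, from which 4463 genes (30.3%) differed, 15.2% higher and 15.1% lower. Between untreated tissue of day 20 and control tissue 6055 genes (41.1%) differed, 22.7% higher and 18.4% lower, and both comparisons share the control arrays. Of the pan-endothelial list 22 of 28 genes were higher after DC101 than in control tissue (median 0.99), and 25 of 28 in untreated tissue (median 1.73). Esm1 had medians of 12.50 after DC101 and 8.26 in control tissue, and Kdr 11.82 and 10.83. The adipocyte list had a median level of 12.11 after DC101, 11.80 in untreated tissue and 13.50 in control tissue.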

How the data were processed

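The deposited values are MAS5 signals, each a probe set's intensity on a linear scale from an Affymetrix mouse array, computed by the authors in GCOS 1.3 per the submitters' processing notes. Of 45101 probe sets 34958 carried 1 gene symbol in the platform annotation, 932 several and 9211 none. Here log2(signal + 16) was taken, probe sets above 331.198 (the 40th percentile) on at least 6 arrays were kept, and the brightest probe set stood for each of 14717 genes. No scaling was added.

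Limma 3.58.1 (R 4.3.3; lmFit, and eBayes with an intensity trend) fitted 1 model over 10 groups and all 78 arrays, two-sided, with Benjamini-Hochberg adjustment over all genes. A call is an adjusted p below 0.05. With 8 arrays a group their number limits the precision. On simulated data with the real arrays' spread, 82% of 100 genes changed by 1 on the log2 scale and 36% of 100 changed by 0.5 were recovered, with 8 false calls among 126. The simulated arrays were independent, with 1 spread per gene for all groups. They held no outlying arrays and no correlation of adjacent arrays, which was 0.18 in the data. Recovery in the data may therefore be lower and false calls more frequent. Where all arrays of the lower group were below the filter level, a fold is given as "at least N-fold": the brighter group's mean over the filter level.

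Genes named are the 12 largest rises and falls among called genes (clone and predicted genes passed over), the 2 largest called changes in each of 41 lists, 14 genes of VEGF signalling and endothelium, and the 4 largest called changes in each direction of the other 3 contrasts. Other genes are list members that illustrate a count, or are said to have been chosen after their values were seen. The comparison, the members and the lists were chosen with earlier results of these data known. Alternatives changed the pseudocount, filter, normalization, probe set rule, arrays, groups and covariates. Promoters are RefSeq's, GRCm38.p6, with 71 of the 94 named genes matched by symbol.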

Additional observations from a re-analysis of the deposited data

Results flagged for a closer look

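An array far from the other 7 of its group, by Dixon's criterion at the 95% level, was found in 5 of 232 combinations of gene or list and group tested, and chance alone gives about 1 in 20. DC101 array 69 was high for the adipocyte list (13.20) and for Mgst1 (16.07), a glutathione transferase abundant in fat and sebaceous gland. Untreated array 49 was low for the potassium channel Kcna5 (8.11), array 52 low for the epidermal protease Klk7 (9.30) and array 54 low for the apelin receptor Aplnr (14.26).

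The DC101 difference from untreated tissue of the same day was not the same at all days for the 38 genes given here, by the test of the difference between days (limma, adjusted p below 0.05). The day 20 minus day 60 value was below 0 for genes of vessels, smooth muscle and matrix: Kcne3 -2.14, Actg2 -2.16, Nid2 -1.98, Pcdh12 -1.82, Pgf -1.76, Cdh5 -1.66, Angpt2 -1.27, Col12a1 -1.27, Apln -1.22 and Dll4 -0.99. It was below 0 as well for Fhod1 (-3.29), Depp1 (-3.21), Hcls1 (-2.78), Rbmxl2 (-2.75), Rusc2 (-2.45), A4galt (-2.36), Kcna5 (-2.08) and Slc16a12 (-1.46). It was above 0 for genes of hair and cornifying epidermis, namely Krtap15 (4.60), Krt33a (4.60), Prr9 (3.06), Krtap21-1 (2.96), Csta1 (2.94), Tchh (2.92), Klk7 (2.40) and Cst6 (2.34), and for Idi2 (6.11), Mt4 (4.53), Lyg2 (3.64), Pinlyp (3.22) and Pon1 (2.29). Without untreated arrays 51 and 52 the call was lost for Kcne3, Pcdh12, Pgf, Col12a1, Slc16a12, Idi2, Tchh, Pinlyp, Lyg2, Prr9, Pon1, Cst6, Krtap21-1, Angpt2, Dll4, Krtap15 and Krt33a.

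The day 20 minus day 5 value was below 0 for Klf15 (-3.38), Zbtb16 (-2.85), Rap1gap (-2.75), Cxcl13 (-2.71) and Kcna5 (-2.22). It was above 0 for Idi2 (7.52), Pcdh8 (2.56), Camp (2.34, with Camp below the filter level on all 8 DC101 arrays of day 20, so that no size can be read from it) and Zfp458 (2.12). Without those arrays Idi2, Cxcl13 and Pcdh8 lost the call. Kcna5 and Idi2 differed from both other days.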

How the results depend on the processing

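Across the pseudocount, the filter, quantile normalization, no intensity trend and the odd or even running number as a covariate, the counts of 359 higher and 773 lower genes stayed within 1.5 times (310 to 395 and 690 to 819). With both RNA ratios as covariates they were 341 and 553. Other settings moved them. Higher genes numbered 572 with array weights, 175 with adjacent arrays as a random block, 85 with adjacent arrays averaged, 57 without untreated arrays 51 and 52, 37 at 2-fold or more and 14 with the compared groups only. Lower genes numbered 480 without DC101 arrays 68 and 72, 439 with the random block, 210 with averaging, 121 at 2-fold or more, 94 without arrays 51 and 52 and 62 with the compared groups only. Leaving out 1 array gave 146 to 661 higher and 332 to 1144 lower genes. Leaving out untreated array 51, 52, 53, 54 or 56 or DC101 array 69 gave 156, 146, 545, 661, 231 and 223 higher genes, and leaving out 51 or 52 gave 344 and 332 lower genes.

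The 36 genes between DC101 and G6 became 593 with array weights, 79 with the odd or even covariate, 74 with RNA ratios, 57 without arrays 68 and 72, 15 with probe sets averaged per gene, 10 at 2-fold or more, and 0 with the compared groups only, with averaging or with the random block. The 267 genes of day 20 minus day 5 became 2015 with array weights, 621 without arrays 68 and 72, 143 with RNA ratios, 126 with the random block, 81 at 2-fold or more and 57 with averaging. The 2678 of day 20 minus day 60 became 4965 with array weights, 1493 without arrays 51 and 52, 1219 with averaging, 818 at 2-fold or more and 748 with RNA ratios. The cause of these moves was not tested. Settings that leave out or average arrays have fewer of them, and counts moved in either direction when arrays were left out.

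Of 94 named genes 69 were called, and of these 14 kept the call without arrays 51 and 52, 9 with the compared groups only, 28 with averaging, 44 with the random block, 45 without arrays 68 and 72 and 47 with RNA ratios. Other probe sets of the called genes gave the same call in 11 cases and lost it in 20, and those of uncalled genes gained it in 3. Among those that lost it were probe sets of Cdh5 (-0.71), Notch4 (-0.47), Vcam1 (-0.58 and -0.40), Cx3cl1 (-0.25) and Egln3 (0.28). The 1 reversal was another probe set of Higd1a, at -0.0099 (adjusted p = 0.99). No paired analysis was possible because the running numbers are not shared between groups. The random block, the odd or even covariate and the fit without arrays 68 and 72 were chosen after seeing the data. Signals below the filter level carry no order, which limits Pon1, Rusc2, A4galt, Ct55, Camp and Cdhr1. The sizes given for genes with part of their arrays below it are limited too, among them Kcna5, Idi2, Akr1c21, Pgf, Pcdh8, Rbmxl2, Hcls1, Fhod1, Ccnb1ip1 and Alas2.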

Other observations

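Alb, the serum albumin gene, rose by 1.09 after DC101 (adjusted p = 0.002, limma) and kept its call without untreated arrays 51 and 52 (adjusted p = 0.013). It belongs to no list and was picked out after its values were seen.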
